A study of Mus musculus with 8 samples.

Results

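FLT3/ITD cells kept without chemokine were set against wild type FLT3 cells treated with Cxcl12, so that the oncogenic receptor stood on one side and the chemokine on the other. The comparison uses 4 of the 8 arrays of the study, 2 on each side, assigned by their labels, and every gene that could be tested, 11898 in all. All samples were Ba/F3 cells, a mouse pro-B line that needs interleukin 3 (IL3) to grow. They were maintained with 10% serum and 0.1 ng/ml IL3, then washed and held for 4 h in medium with 0.5% albumin. The FLT3/ITD cells carried FLT3 with an internal tandem duplication, of the type labelled N51 on slide 1 and N78 on slide 2, and received no Cxcl12. The wild type FLT3 + Cxcl12 cells carried the unmutated receptor and had 100 ng/ml recombinant murine Cxcl12 in the medium during those 4 h. Untreated wild type FLT3 cells (2 arrays) are given last where they help to place a value. The arrays of FLT3/ITD cells with Cxcl12 (2) entered only the estimate of the spread and the choice of genes and probes.

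Blood progenitors carry FLT3, a receptor with tyrosine kinase activity. Internal tandem duplications in its juxtamembrane region switch it on without ligand and are common in acute myeloid leukaemia. The activated receptor signals to STAT5, to phosphoinositide 3-kinase and to the MAP kinases, and it can replace IL3 for Ba/F3 cells. Cxcl12 is a chemokine that acts through Cxcr4, a receptor coupled to inhibitory G proteins, which draws blood progenitors to the bone marrow stroma, rearranges their actin and signals to phosphoinositide 3-kinase and the MAP kinases. Both inputs thus reach pathways in common, and the comparison asks where the cells end up in like and where in different states after each of them.

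Each slide held 1 array of every group, at the same position on both slides, so that neither slide and ITD type nor group and position can be told apart. The labels do not say whether replicates came from separate cultures or whether a line was a clone, and p-values then measure only the spread between these samples. Between 49.2% and 54.9% of spots were well above background on an array. The pro-B markers Cd79a, Cd79b, Dntt, Ptprc and Vpreb1 were above background on all 4 arrays compared, whereas Pax5, Ebf1, Rag1, Rag2, Igll1, Cd24a, Spib and Pou2af1 were above it on 0 of 4. The mouse Flt3 probe was not above background on both arrays of any group and was not tested, so it does not check the labels. Levels are log2 intensities relative to the 75th percentile of the array, and differences are FLT3/ITD minus wild type FLT3 + Cxcl12 unless another pair is named, with the standard error (SE) and the Benjamini-Hochberg adjusted p from limma. A gene is said to have risen or fallen in FLT3/ITD cells only where that adjusted p was under 0.05.

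Set side by side, FLT3/ITD cells had more mRNA of STAT5 targets such as Pim1 and Id1, of glucose transport genes such as Slc2a3 and of Ddit4 and Trib3. Wild type FLT3 + Cxcl12 cells had more of the muscle-type actins Acta1 and Actc1, of the phosphatase gene Dusp2 and of some mast cell proteases, such as Mcpt8. In all 166 of 11898 genes passed the test (1.4%). Of these 109 (0.916%) rose and 57 (0.479%) fell in FLT3/ITD cells. A further count of 7517 genes (63.2%) had a 95% interval of the difference wholly within 2-fold in either direction, and for these the arrays bound the difference between the states. At an unadjusted p under 0.05 there were 1891 genes. With normexp background correction 110 genes passed, 51 higher and 59 lower, and 2155 lay within 2-fold. Without the slide as a block 0 passed (299 at an unadjusted p under 0.05) and 1182 lay within 2-fold, and without either FLT3/ITD or either wild type FLT3 + Cxcl12 array between 28 and 62 genes passed, against 263 and 238 without either array of FLT3/ITD cells with Cxcl12.

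On slide 1, the typical gene of N51 FLT3/ITD cells differed from wild type FLT3 + Cxcl12 cells by 0.257 (median absolute log2 difference), and 6.6% of genes differed more than 2-fold. On slide 2 the N78 cells differed by 0.362, with 10.4% of genes beyond 2-fold. Across genes, the differences of the 2 slides correlated at 0.447 (Pearson, over 11898 genes, which are not independent replicates). More than 2-fold in the same direction on both slides were 207 genes higher and 109 lower, while 20 genes were higher with N51 and lower with N78 and 14 the reverse. All 166 genes past the test pointed the same way on both slides, which the test itself favours.

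**Figure D1:**
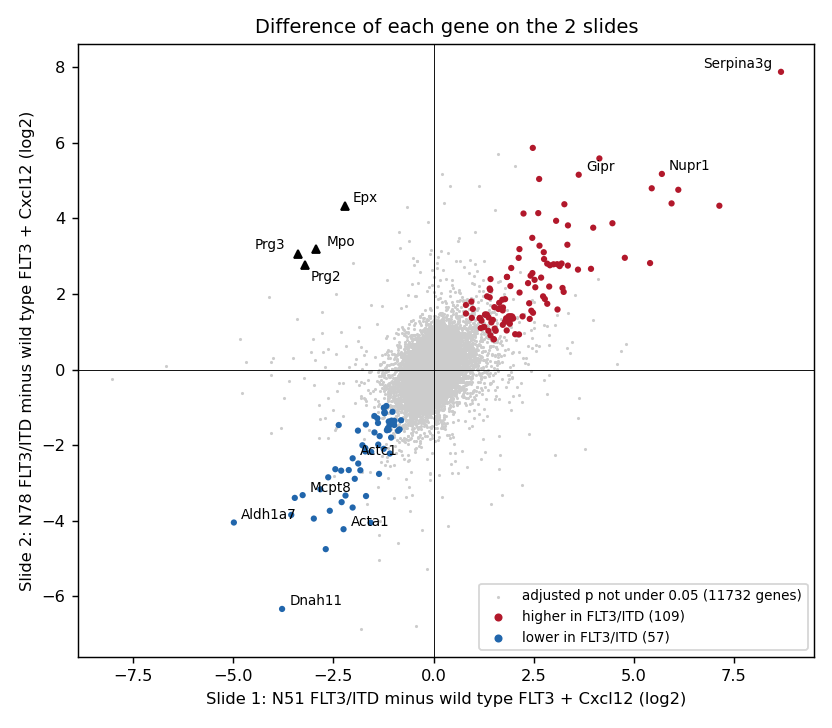
Difference between FLT3/ITD and wild type FLT3 + Cxcl12 cells for each of 11898 genes, with slide 1 (N51) on the x axis and slide 2 (N78) on the y axis, both in log2 units. Red points are the 109 genes that rose and blue points the 57 that fell in FLT3/ITD cells, and black triangles mark Epx, Mpo, Prg2 and Prg3, which lie on opposite sides of 0 on the slides.

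Levels in untreated wild type FLT3 cells show on which side a difference lay. Among the 109 higher genes the median difference was 2.0, and FLT3/ITD cells stood 1.29 above untreated wild type FLT3 cells (median) while wild type FLT3 + Cxcl12 cells stood at -0.63. Among the 57 lower genes the median difference was -1.87, with -1.26 for FLT3/ITD and 0.42 for wild type FLT3 + Cxcl12, each against untreated wild type FLT3. Both of these differences are taken from the same untreated arrays, so they are given side by side and not compared as independent results. Against untreated wild type FLT3 cells alone, 76 genes (0.639%) passed for FLT3/ITD, 43 higher (0.361%) and 33 lower (0.277%), and 9 (0.0756%) for wild type FLT3 + Cxcl12, 1 higher (0.0084%) and 8 lower (0.0672%).

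The largest differences lay on the FLT3/ITD side. Serpina3g, a serine protease inhibitor of haematopoietic cells and a member of a family of near-identical genes, had levels of 1.11 and 1.95 in FLT3/ITD cells (slide 1 and slide 2), against -7.57 and -5.93 in wild type FLT3 + Cxcl12 cells, where it was not well above background. It was at least 87.2-fold higher in FLT3/ITD cells (adjusted p = 0.00161). Such a bound is given for probes too dim on both arrays of the lower group. It takes the higher group's mean over the lowest signal above background on the other arrays. The bound describes the average of both slides and need not hold on either slide alone. Some genes with a bound, Serpina3g among them, passed the filter on dim probes only through the cells where they are high, which favours them in the test. Untreated wild type FLT3 cells had -7.94 and -4.24, so FLT3/ITD cells stood apart from both kinds of wild type FLT3 cell. The Serpina3g probe lies on mouse chromosome 12 from 105480045 to 105480104 in mm9.

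The 250 bases before the start of Serpina3g are shown because this gene differed most. They hold 1 match to the STAT motif TTCNNNGAA (searched on both strands), in capitals, starting 33 bases before the start (RefSeq, GRCm38.p6, chr12:104235897-104236146, plus strand):
Serpina3g: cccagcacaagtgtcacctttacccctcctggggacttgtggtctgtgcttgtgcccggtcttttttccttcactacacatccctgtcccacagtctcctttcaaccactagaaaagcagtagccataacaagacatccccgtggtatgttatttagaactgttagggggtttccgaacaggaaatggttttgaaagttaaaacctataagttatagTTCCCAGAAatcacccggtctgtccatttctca
The same motif occurs in 5.97% of 11928 promoter windows of this length. A match describes the letters and is not evidence of binding. Of the 13 measured STAT5 targets 9 had a window in the table, and Socs3 was the 1 gene with a match.

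Further genes among the 12 largest increases have varied roles. Mrvi1, which binds an inositol trisphosphate receptor, had 3.28 and 1.83 in FLT3/ITD cells against -2.83 and -2.93 in wild type FLT3 + Cxcl12 cells, a difference of 5.44 (SE 0.37, adjusted p = 0.00119). Kalrn, a guanine nucleotide exchange factor for small GTPases, had 0.15 with N51 and -2.31 with N78. Averaged over the slides it was higher by at least 14.3-fold (adjusted p = 0.00563). The immune cell receptor Slamf1 was higher by at least 8.21-fold (adjusted p = 0.00395). Slc30a2, which encodes a zinc transporter, was at least 4.46-fold higher (adjusted p = 0.00633), although it had -0.10 with normexp background correction. Arhgap15, which encodes a Rac GTPase-activating protein, was at least 5.77-fold higher (adjusted p = 0.0455), with levels of -4.78 with N51 and 0.01 with N78. Trgv2, a T cell receptor gamma variable segment, rose by 5.12 (SE 0.77). The kinase gene Mylk, whose product phosphorylates myosin light chains, rose by 4.11 (SE 0.57), with 1 of 2 Cxcl12-treated arrays above background. Kalrn (1.25), Slamf1 (0.66), Arhgap15 (0.39) and Mylk (1.14) did not pass with normexp background correction, while Mrvi1 (3.82) and Trgv2 (4.13) did. Kalrn, Slamf1, Slc30a2 and Arhgap15 were above background on 0 arrays of wild type FLT3 cells, with or without Cxcl12. The filter on dim probes thus kept them only through FLT3/ITD cells, and their p-values set signal against values near the floor.

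For 2 of the 12 largest increases the mean level of the untreated cells sat nearer to FLT3/ITD than to Cxcl12-treated cells. For Gipr this held on both slides and for Castor1 on slide 2 alone. Gipr, the receptor of the gut hormone GIP, had -0.33 and -1.35 in FLT3/ITD cells, -3.95 and -6.50 in wild type FLT3 + Cxcl12 cells and -0.73 and -0.58 in untreated wild type FLT3 cells. FLT3/ITD exceeded wild type FLT3 + Cxcl12 by 4.39 (SE 0.56, adjusted p = 0.00633), and with Cxcl12 1 of 2 arrays was above background. Its difference from untreated wild type FLT3 was -0.18 in FLT3/ITD cells (adjusted p = 0.908) and -4.57 in wild type FLT3 + Cxcl12 cells (adjusted p = 0.0283). Castor1, an arginine sensor of the mTORC1 pathway, was at least 4.52-fold higher in FLT3/ITD cells (adjusted p = 0.0071), at -3.43 and -2.05 against -7.42 and -5.80, with -5.84 and -2.60 in untreated wild type FLT3 cells. Neither passed with normexp background correction, Gipr having 0.89 (adjusted p = 0.465) and Castor1 0.029 (adjusted p = 0.983).

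STAT5 targets are genes induced through STAT5, which cytokine receptors activate through JAK kinases and to which FLT3/ITD also signals. Of 13 measured, 2 rose in FLT3/ITD cells, 0 fell and 11 did not pass. Positive differences were found for 11 of 13 (median 0.96, against 0.005 over all genes, with 1.33 on slide 1 and 0.38 on slide 2). Against untreated wild type FLT3 cells the list's median was 0.50 in FLT3/ITD cells, with 10 of 13 positive. In wild type FLT3 + Cxcl12 cells it was -0.27, with 4 of 13 positive, so the difference lay on both sides. The kinase gene Pim1 (chromosome 17, 29630740 to 29630799, mm9) had -0.34 and 0.40 in FLT3/ITD cells, against -3.59 and -1.66 in wild type FLT3 + Cxcl12 cells and -3.31 and -1.03 in untreated wild type FLT3 cells. Both FLT3/ITD arrays lay above all the wild type FLT3 ones, and Pim1 rose by 2.65 (SE 0.37, adjusted p = 0.00977). Id1, which blocks basic helix-loop-helix factors, had 3.31 and 0.38 in FLT3/ITD cells, 0.53 and -1.49 in wild type FLT3 + Cxcl12 cells and 1.54 and -0.25 in untreated wild type FLT3 cells. It rose on each slide, by 2.32 (SE 0.28, adjusted p = 0.0057), although the level with N78 lay below that of wild type FLT3 + Cxcl12 cells on slide 1. For Id1 the untreated cells lay in between, FLT3/ITD at 1.2 and wild type FLT3 + Cxcl12 at -1.13 from them.

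Cish and Socs1, feedback inhibitors of cytokine signalling, had differences of 2.15 (SE 0.48, adjusted p = 0.065) and 1.53 (SE 0.64, adjusted p = 0.288) and did not pass. The survival gene Bcl2l1 (BCL-XL) had 0.58 and 0.60 in FLT3/ITD cells against -0.86 and -0.20 in wild type FLT3 + Cxcl12 cells (difference 1.12, adjusted p = 0.126). For Socs2 (-0.17), Ccnd2 (0.08) and Lrg1 (0.04) the 95% interval lay within 2-fold. Cdkn1a, the cell cycle inhibitor p21, had a difference of 1.09 (SE 0.22, adjusted p = 0.0507), also among the p53 targets.

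Among receptors and JAK-STAT components, Csf2rb2 fell and 13 of 15 did not pass. Csf2rb2 encodes the IL3-specific beta chain in mouse and had 6.98 and 6.89 in FLT3/ITD cells, against 7.80 and 8.23 in wild type FLT3 + Cxcl12 cells and 7.63 and 7.49 in untreated wild type FLT3 cells. It fell by 1.08 (SE 0.18, adjusted p = 0.0222; -0.20 and not past the test with normexp background correction), and its near-identical neighbour Csf2rb, which the probes may not separate, had -0.91 (SE 0.19, adjusted p = 0.056). The kinase genes Jak2 (-0.02) and Jak3 (0.12) and the transcription factor genes Stat5a (-0.10), Stat5b (-0.30) and Stat3 (-0.13) lay within 2-fold by their intervals.

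**Figure D2:**
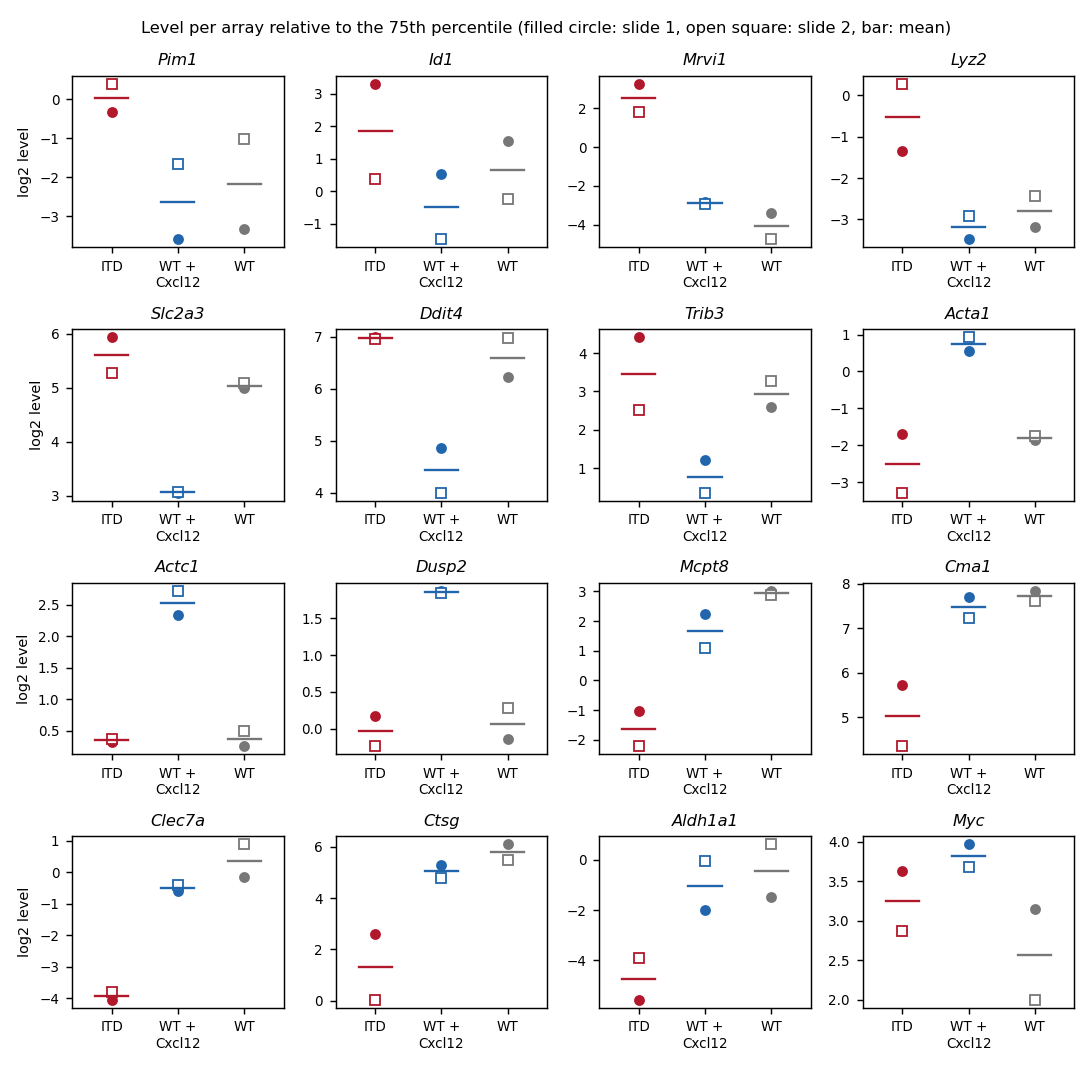
Levels of 16 genes on each array, as log2 intensity relative to the 75th percentile, in FLT3/ITD (red), wild type FLT3 + Cxcl12 (blue) and untreated wild type FLT3 cells (grey), with slide 1 as filled circles, slide 2 as open squares and bars for the mean of 2 arrays. For Pim1 and Lyz2 both FLT3/ITD arrays lie above all the wild type FLT3 ones, for Slc2a3, Acta1, Actc1 and Dusp2 the Cxcl12-treated arrays stand apart, and Myc did not pass the test.

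Glycolysis and hypoxia genes, which fuel cells with glucose and are induced through HIF factors, separated FLT3/ITD from wild type FLT3 + Cxcl12 cells. Of 29 measured, 5 rose in FLT3/ITD cells, 0 fell and 24 did not pass, and 27 of 29 differences were positive, with a median of 0.73 against 0.005 over all genes (slide 1 0.95, slide 2 0.69). Against untreated wild type FLT3 cells the list's median was 0.05 in FLT3/ITD cells, with 17 of 29 positive, and -0.67 in wild type FLT3 + Cxcl12 cells, with 1 of 29 positive. Along this list, then, FLT3/ITD cells lay near the untreated level and Cxcl12-treated cells below it.

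Slc2a3, the high-affinity glucose transporter GLUT3 (chromosome 6, 122678075 to 122678134, mm9), had 5.94 and 5.27 in FLT3/ITD cells, against 3.05 and 3.07 in wild type FLT3 + Cxcl12 cells and 5.0 and 5.08 in untreated wild type FLT3 cells. FLT3/ITD exceeded wild type FLT3 + Cxcl12 by 2.54 (SE 0.23, adjusted p = 0.00219). The difference from untreated wild type FLT3 was 0.56 in FLT3/ITD cells (adjusted p = 0.355) and -1.98 in wild type FLT3 + Cxcl12 cells (adjusted p = 0.0283). Slc2a1, the widely expressed transporter GLUT1, rose by 1.2 (SE 0.21, adjusted p = 0.028), at 5.74 and 4.18 against 4.37 and 3.15. It is named beyond the 4 largest of its list because the count of 5 holds it.

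Pdk1, a kinase that keeps pyruvate out of mitochondria, had 1.67 and 0.98 in FLT3/ITD cells against -0.11 and -0.88 in wild type FLT3 + Cxcl12 cells, and rose by 1.83 (SE 0.36, adjusted p = 0.0455). Ndrg1, a stress- and hypoxia-induced gene, rose by 2.0 (SE 0.29, adjusted p = 0.011), with 5.99 and 2.10 in FLT3/ITD cells against 3.55 and 0.54 in wild type FLT3 + Cxcl12 cells. The levels of Ndrg1 depended on the slide, and the groups overlapped across slides though not within either. Ankrd37, a HIF target, rose by 1.64 (SE 0.30, adjusted p = 0.0338, and 0.0571 with normexp background correction), at 4.71 and 4.13 against 3.38 and 2.20. Untreated wild type FLT3 cells had 4.97 and 4.61, above FLT3/ITD on both slides. From untreated cells, Ankrd37 stood at -0.37 in FLT3/ITD and -2.01 in wild type FLT3 + Cxcl12 cells. Pdk1 stood at 0.46 and -1.37 and Ndrg1 at 0.31 and -1.69 in the same order. None of these departures from untreated cells passed the test. Enzymes of glycolysis proper differed less: Pfkp had 1.1 (adjusted p = 0.06), Hk2 0.82 (adjusted p = 0.139), Pgam1 0.73 (adjusted p = 0.072), Aldoa 0.56 (adjusted p = 0.119) and Ldha 0.52 (adjusted p = 0.269), and for Aldoa, Gpi1, Pgk1, Tpi1, Ldha and Pkm the interval lay within 2-fold. The members with negative differences were Hk1 at -0.12 and Aldoc at -0.61 (adjusted p = 0.414).

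The HIF motif ACGTG, searched on both strands, was found in the 250 bases before the start of 16 of the 26 members with a window, against 21.6% of all 11928 windows. The list was chosen to hold hypoxia genes, which by itself favours this motif among its members. Among members past the test it was present in Slc2a1 and Ankrd37, 2 of 3 with a window, and among those not past it in 14 of 23. Ankrd37 is shown as the member with matches near both ends of the window, 241 and 6 bases before the start, in capitals (RefSeq, GRCm38.p6, chr8:45999851-46000100, minus strand):
Ankrd37: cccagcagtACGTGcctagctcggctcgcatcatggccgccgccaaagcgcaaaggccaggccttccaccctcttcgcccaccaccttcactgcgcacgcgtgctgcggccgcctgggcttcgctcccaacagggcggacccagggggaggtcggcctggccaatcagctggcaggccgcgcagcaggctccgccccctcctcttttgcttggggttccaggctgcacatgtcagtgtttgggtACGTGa

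Genes of the actin cytoskeleton linked to the transcription factor SRF, which actin dynamics control through its cofactors, showed the opposite side. Of 18 measured, 3 fell in FLT3/ITD cells, 0 rose and 15 did not pass, and 16 of 18 differences were negative (median -0.47; slide 1 -0.47, slide 2 -0.45), but the list's median was 0.19 with normexp background correction, when all genes stood at 0.21. Against untreated wild type FLT3 cells the list's median was 0.16 in FLT3/ITD cells and 0.67 in wild type FLT3 + Cxcl12 cells, with 12 and 16 of 18 positive. The difference between the states thus lay on the Cxcl12 side for this list too.

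Acta1, skeletal muscle actin (chromosome 8, 126416197 to 126416256, mm9), had -1.70 and -3.29 in FLT3/ITD cells, against 0.55 and 0.93 in wild type FLT3 + Cxcl12 cells and -1.86 and -1.75 in untreated wild type FLT3 cells. It was lower in FLT3/ITD than in wild type FLT3 + Cxcl12 cells by a difference of -3.24 (SE 0.42, adjusted p = 0.00695). Actc1, cardiac actin (chromosome 2, 113874011 to 113874934), had 0.32 and 0.38 in FLT3/ITD cells, 2.34 and 2.73 in wild type FLT3 + Cxcl12 cells and 0.25 and 0.49 in untreated wild type FLT3 cells. FLT3/ITD and untreated cells shared 1 narrow range and the Cxcl12-treated cells stood above it. The difference was -2.18 (SE 0.21, adjusted p = 0.00279), with -0.02 from untreated wild type FLT3 in FLT3/ITD cells (adjusted p = 0.974) and 2.16 in wild type FLT3 + Cxcl12 cells (adjusted p = 0.0283). Cnn2, the actin-binding calponin 2, had 1.38 and 1.82 in FLT3/ITD cells against 3.08 and 3.99 in wild type FLT3 + Cxcl12 cells (difference -1.94, SE 0.25, adjusted p = 0.0071; -1.15, adjusted p = 0.404 with normexp background correction).

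The remaining actin genes differed less. Acta2, smooth muscle actin, had -0.62 (adjusted p = 0.252), Actg2 -0.75 (adjusted p = 0.195), Srf itself -0.51 (adjusted p = 0.451) and zyxin (Zyx) -0.51 (adjusted p = 0.474). Acta2 stood above untreated wild type FLT3 cells in both states, at 0.85 in FLT3/ITD and 1.47 in wild type FLT3 + Cxcl12 cells. Cofilin (Cfl1, -0.10), vinculin (Vcl, -0.14) and Tagln2 (-0.06) lay within 2-fold by their intervals, and Actb (0.29) and Tagln (0.30) were the 2 members with positive differences.

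The CArG box, the motif SRF binds, was searched on both strands in the 250 bases before each start. It occurs in 1.14% of 11928 windows (136) and was present in 6 of the 15 members of the list with a window, namely all 3 that fell, Acta1, Actc1 and Cnn2, and 3 of the 12 that did not pass, Actg1, Srf and Vcl. The 3 windows are shown because these are the members that separate the states, with the CArG box in capitals, starting 73, 47 and 56 bases before the start (RefSeq, GRCm38.p6; Acta1 chr8:123894776-123895025, minus strand; Actc1 chr2:114052876-114053125, minus strand; Cnn2 chr10:79988350-79988599, plus strand):
Acta1: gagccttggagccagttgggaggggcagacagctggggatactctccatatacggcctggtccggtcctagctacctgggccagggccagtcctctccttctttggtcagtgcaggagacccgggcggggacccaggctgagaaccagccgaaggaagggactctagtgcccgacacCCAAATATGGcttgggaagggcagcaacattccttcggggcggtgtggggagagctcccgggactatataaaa
Actc1: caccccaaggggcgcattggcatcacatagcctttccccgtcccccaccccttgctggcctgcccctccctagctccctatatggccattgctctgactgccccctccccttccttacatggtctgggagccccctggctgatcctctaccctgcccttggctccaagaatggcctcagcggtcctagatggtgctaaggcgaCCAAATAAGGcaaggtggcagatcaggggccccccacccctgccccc
Cnn2: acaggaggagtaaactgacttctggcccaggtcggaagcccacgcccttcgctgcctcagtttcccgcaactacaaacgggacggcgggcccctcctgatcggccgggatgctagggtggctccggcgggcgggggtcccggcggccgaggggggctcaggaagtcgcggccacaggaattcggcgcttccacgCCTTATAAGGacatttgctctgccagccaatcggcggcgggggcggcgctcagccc
The phosphatase gene Dusp2, which fell with them, had no match in its window. The list was chosen for its link to SRF, which by itself favours CArG boxes among its members. Whether SRF bears on these differences was not tested.

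**Figure D3:**
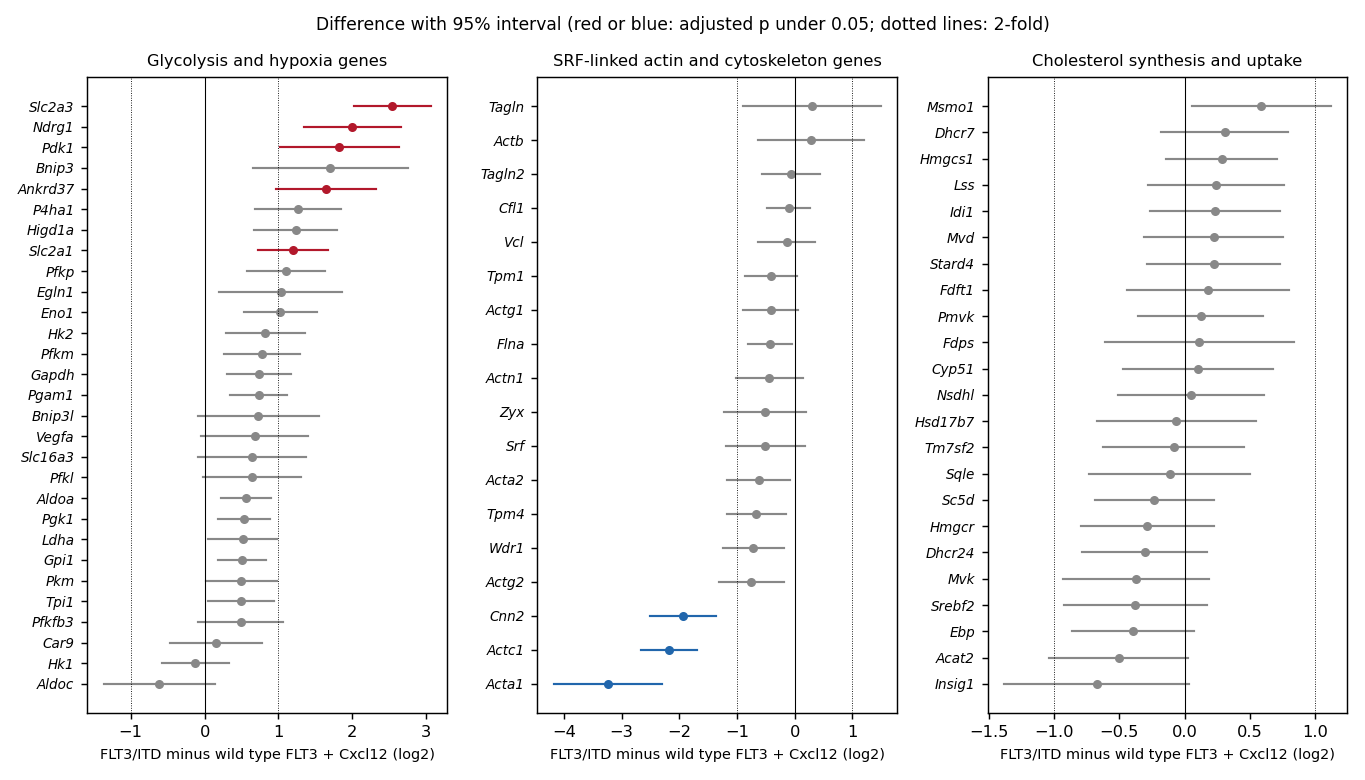
Difference between FLT3/ITD and wild type FLT3 + Cxcl12 cells (log2, x axis) with its 95% interval from limma for the measured members of 3 gene lists (23 of the 24 cholesterol genes are drawn), with dotted lines at 2-fold. Coloured members passed the test: 5 glycolysis and hypoxia genes were higher (red), 3 actin and cytoskeleton genes lower (blue), and 0 of 24 cholesterol genes passed.

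Early response genes to growth signals split by member and by slide. Dusp2, which dephosphorylates MAP kinases, had 0.17 and -0.24 in FLT3/ITD cells, against 1.87 and 1.84 in wild type FLT3 + Cxcl12 cells and -0.14 and 0.28 in untreated wild type FLT3 cells. FLT3/ITD cells were thus at the untreated level, and the difference between the states was -1.89 (SE 0.28, adjusted p = 0.0117; -1.22, adjusted p = 0.0789 with normexp background correction). It was the 1 of 9 measured MAPK feedback genes that passed. Dusp4, another such phosphatase gene, had 2.65 and 0.52 in FLT3/ITD cells, 2.31 and 1.07 in wild type FLT3 + Cxcl12 cells and 1.72 and -1.33 in untreated wild type FLT3 cells, a difference of -0.10 with an interval within 2-fold. Dusp6 had -0.96 (adjusted p = 0.189) and Spry2 -0.80 (adjusted p = 0.15).

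Of 16 immediate-early genes, which serum and growth factors induce within minutes, 1 rose in FLT3/ITD cells, 0 fell and 15 did not pass. Ier3 rose by 1.87 (SE 0.27, adjusted p = 0.0115), at 3.28 and 2.50 in FLT3/ITD cells against 0.88 and 1.16 in wild type FLT3 + Cxcl12 cells, with 2.73 and 2.84 in untreated wild type FLT3 cells. Egr2, a zinc finger factor, had -0.90 and -2.76 in FLT3/ITD cells and 0.91 and 4.11 in wild type FLT3 + Cxcl12 cells (difference -4.34, SE 0.90, adjusted p = 0.054). Fos had -1.97 and -2.08 against -0.65 and 1.94 (difference -2.67, SE 0.59, adjusted p = 0.063), and Fosb -3.92 and -3.18 against -4.12 and 0.21 (difference -1.59, adjusted p = 0.379). For these genes the Cxcl12-treated array of slide 2 was the high one. The list's median was 0.26 on slide 1 and -1.12 on slide 2. Myc, a transcription factor that drives growth, had 3.63 and 2.87 in FLT3/ITD cells, 3.97 and 3.68 in wild type FLT3 + Cxcl12 cells and 3.15 and 2.0 in untreated wild type FLT3 cells, and its difference of -0.58 did not pass (SE 0.24, adjusted p = 0.288; 0.17 with normexp background correction).

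The ATF4 and amino acid response, which cells turn on under stress of the endoplasmic reticulum or lack of amino acids, had positive differences for most members. Of 21 measured, Nupr1 and Trib3 rose, 0 fell and 19 did not pass, and 20 of 21 differences were positive (median 0.66; slide 1 0.69, slide 2 0.69). Nupr1, a small stress-induced chromatin protein, was at least 28.0-fold higher in FLT3/ITD cells (adjusted p = 0.00563), with 0.30 and -0.51 against -5.40 and -5.69, but did not pass with normexp background correction (1.77, adjusted p = 0.0731). Trib3, a pseudokinase that ATF4 induces, had 4.42 and 2.51 in FLT3/ITD cells, 1.2 and 0.35 in wild type FLT3 + Cxcl12 cells and 2.58 and 3.28 in untreated wild type FLT3 cells, and rose by 2.69 (SE 0.48, adjusted p = 0.03).

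The list's median against untreated wild type FLT3 was 0.64 in FLT3/ITD and 0.02 in wild type FLT3 + Cxcl12 cells, with 18 and 11 of 21 members positive. Asns, asparagine synthetase, had 5.34 and 6.26 in FLT3/ITD cells against 4.41 and 4.67 in wild type FLT3 + Cxcl12 cells (difference 1.26, SE 0.26, adjusted p = 0.051). Phgdh, which starts serine synthesis, had a difference of 0.85 (adjusted p = 0.09), Pycr1, of proline synthesis, 1.31 (adjusted p = 0.063) and Atf4 itself 1.08 (adjusted p = 0.175). For the amino acid transporter genes Slc7a5 (0.15) and Slc1a5 (0.18) the interval lay within 2-fold.

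FOXO targets, which phosphoinositide 3-kinase and AKT hold down, were mixed, with 2 of 15 higher, 1 lower and 12 not past the test (median 0.40, but 0.12 without the N51 array and 0.17 and 0.23 without the Cxcl12-treated array of slide 2 and slide 1). Ddit4, an inhibitor of mTORC1 that stress and hypoxia also induce, had 6.99 and 6.96 in FLT3/ITD cells, against 4.87 and 4.00 in wild type FLT3 + Cxcl12 cells and 6.22 and 6.97 in untreated wild type FLT3 cells. It was higher by 2.54 (SE 0.31, adjusted p = 0.00582), and the untreated cells lay with FLT3/ITD. Sesn3, a stress-induced inhibitor of mTORC1, fell by 1.67 (SE 0.31, adjusted p = 0.036), at -1.85 and -3.54 in FLT3/ITD cells against -0.60 and -1.44 in wild type FLT3 + Cxcl12 cells. Bcl2l11, the gene of the pro-apoptotic BIM, had -0.92 (SE 0.23, adjusted p = 0.097), and Bbc3, which encodes PUMA, 0.94 (adjusted p = 0.101).

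NF-kB targets included 2 that rose of 14 (median 0.68). Nfkbia, which encodes the inhibitor I-kappa-B alpha, had 4.18 and 5.37 in FLT3/ITD cells, 3.24 and 3.57 in wild type FLT3 + Cxcl12 cells and 4.11 and 4.84 in untreated wild type FLT3 cells, a rise of 1.37 (SE 0.23, adjusted p = 0.0227; 2.15, adjusted p = 0.086 with normexp background correction). The chemokine gene Ccl5 rose by 1.91 (SE 0.38, adjusted p = 0.049), but its difference was -0.18 with normexp background correction. Tnfaip3, another feedback inhibitor, had 1.02 (SE 0.23, adjusted p = 0.063). Of 16 p53 targets 0 passed, with 14 positive differences and a median of 0.57 that was 0.09 on slide 1 and 0.83 on slide 2 (0.25 without the N78 array, 0.27 without the Cxcl12-treated array of slide 2). Of 20 interferon-stimulated genes 0 passed (median 0.41, 0.21 to 0.41 with an array left out and lowest without the Cxcl12-treated array of slide 2).

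Of 16 measured haematopoietic transcription factors 1 rose and 1 fell (12.5%), and of 16 adhesion molecules 1 rose and 0 fell (6.25%). Of all genes 1.4% passed. Myb, a transcription factor of blood progenitors, had 3.86 and 3.98 in FLT3/ITD cells, against 5.26 and 5.27 in wild type FLT3 + Cxcl12 cells and 5.38 and 4.85 in untreated wild type FLT3 cells. It fell by 1.35 (SE 0.21, adjusted p = 0.0167), but another Myb probe had the opposite sign, and it did not pass with normexp background correction (-0.56). Runx1 had 0.76 (SE 0.24, adjusted p = 0.164) and Runx2 -1.57 (SE 0.38, adjusted p = 0.088). Gata1 (0.02) and Lyl1 (-0.18) lay within 2-fold by their intervals. Itga4, the integrin chain that binds VCAM1, had 1.26 and 1.85 in FLT3/ITD cells against 2.42 and 4.28 in wild type FLT3 + Cxcl12 cells (difference -1.80, SE 0.39, adjusted p = 0.063).

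The mast cell and basophil marker list held 3 of the 12 largest decreases, Mcpt8, Mcpt4 and Cma2. Of 13 measured mast cell and basophil markers 4 fell in FLT3/ITD cells, 0 rose and 9 did not pass (median -0.59; slide 1 -0.51, slide 2 -0.69). The summed level of the list, relative to the 75th percentile on a linear scale, was 206 and 99.9 in FLT3/ITD cells, 396 and 266 in wild type FLT3 + Cxcl12 cells and 452 and 325 in untreated wild type FLT3 cells. Most of the gap in this sum between FLT3/ITD and wild type FLT3 + Cxcl12 cells came from 1 gene, Cma1 (5.73 and 4.35 against 7.70 and 7.24). The sum thus says little about the other markers. In such bulk samples, fewer cells with these mRNAs and less mRNA per cell cannot be told apart. Of the 18 listed markers 10 were above background on all 4 arrays, and Kit, Tpsab1 and Tpsb2 on 0 of 4. Whether the level of these markers bears on the other differences was not tested.

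Mcpt8, a basophil protease (chromosome 14, 56702300 to 56702674, mm9), had -1.04 and -2.22 in FLT3/ITD cells, against 2.23 and 1.1 in wild type FLT3 + Cxcl12 cells and 3.02 and 2.88 in untreated wild type FLT3 cells. It fell by 3.30 (SE 0.37, adjusted p = 0.00395). Cma1, a mast cell chymase and an abundant mRNA here, had 5.73 and 4.35 in FLT3/ITD cells, 7.70 and 7.24 in wild type FLT3 + Cxcl12 cells and 7.85 and 7.61 in untreated wild type FLT3 cells, and fell by 2.43 (SE 0.34, adjusted p = 0.0095). Both genes separated FLT3/ITD from either kind of wild type FLT3 cell without overlap. The related protease genes Mcpt4 and Cma2 fell by 3.16 (SE 0.37, adjusted p = 0.00531) and 2.90 (SE 0.39, adjusted p = 0.00838, Cma2 being above background on 1 of 2 FLT3/ITD arrays), and lie in the same cluster of similar genes. Mcpt8 and Mcpt4 also passed with normexp background correction, and Cma1 (-1.60) and Cma2 (-2.11) did not. The protease genes Cpa3 (0.43, adjusted p = 0.763) and Prss34 (0.26, adjusted p = 0.744) had positive differences and did not pass. Among members that are not proteases, Cd200r3 had -1.27 (adjusted p = 0.0507) and Hdc, histidine decarboxylase, -1.30 (adjusted p = 0.345). Hdc had 1.03 against 4.10 on slide 1 and 2.56 against 2.09 on slide 2. Gata2 had -0.59 (adjusted p = 0.212), Srgn -0.16 and Mitf 0.31.

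Ctsg, the granule protease cathepsin G, had 2.61 and 0.03 in FLT3/ITD cells, against 5.30 and 4.78 in wild type FLT3 + Cxcl12 cells and 6.10 and 5.49 in untreated wild type FLT3 cells, and fell by 3.72 (SE 0.67, adjusted p = 0.0305). Prtn3, proteinase 3 of neutrophil granules, rose instead, by 1.67 (SE 0.30, adjusted p = 0.0305), at -1.98 and -0.88 against -3.96 and -2.23. Its levels in untreated wild type FLT3 cells, -2.40 and -1.35, lay nearer to FLT3/ITD than to Cxcl12-treated cells on both slides. Of the neutrophil markers Elane, Camp, Lcn2, Ltf and S100a8 were above background on 0 of 4 arrays, and of 5 measured Prtn3 rose, Ctsg fell and 3 did not pass, with 4 of 5 differences positive (median 0.51). The calcium-binding S100a9 had 3.0 (SE 0.73, adjusted p = 0.089). The summed level of the list was 7.03 and 9.71 in FLT3/ITD cells, 43.7 and 28.7 in wild type FLT3 + Cxcl12 cells and 76.8 and 53.1 in untreated wild type FLT3 cells, and without Ctsg 0.931 and 8.68, 4.29 and 1.18, and 8.18 and 8.03 in the same order. Clec7a, the beta-glucan receptor dectin-1, had -4.05 and -3.79 in FLT3/ITD cells against -0.59 and -0.39 in wild type FLT3 + Cxcl12 cells and fell by 3.43 (SE 0.39, adjusted p = 0.00395). The near-identical lysozyme genes moved the other way. Lyz2 had -1.34 and 0.28 in FLT3/ITD cells against -3.48 and -2.91 and rose by 2.67 (SE 0.30, adjusted p = 0.00395), and Lyz1 was higher by at least 3.89-fold (adjusted p = 0.011) but had -0.35 with normexp background correction, under which Lyz2 (1.04) and Prtn3 (0.27) did not pass either.

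A set of eosinophil and granulocyte granule genes changed sides between the slides. Prg2, the major basic protein of eosinophils, had 2.59 and 2.79 in FLT3/ITD cells, 5.80 and 0.02 in wild type FLT3 + Cxcl12 cells and 6.32 and 3.32 in untreated wild type FLT3 cells. Epx, eosinophil peroxidase, had -0.95 and 3.24 in FLT3/ITD cells, 1.27 and -1.1 in wild type FLT3 + Cxcl12 cells and 2.51 and 2.82 in untreated wild type FLT3 cells. Mpo, myeloperoxidase, had -0.93 and 2.95 in FLT3/ITD cells, 2.0 and -0.23 in wild type FLT3 + Cxcl12 cells and 2.93 and 2.88 in untreated wild type FLT3 cells. The low arrays were the N51 array on slide 1 and the Cxcl12-treated array on slide 2, so the averages over slides, 0.12 for Mpo (SE 1.15, adjusted p = 0.974) and 1.06 for Epx (SE 1.15, adjusted p = 0.707), describe neither slide.

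Among the other largest decreases, Dnah11, an axonemal dynein, had -1.94 and -5.43 in FLT3/ITD cells (1 of 2 arrays above background) against 1.85 and 0.91 in wild type FLT3 + Cxcl12 cells, and fell by 5.06 (SE 0.53, adjusted p = 0.00306). Aldh1a1, which makes retinoic acid, fell by 3.70 (SE 0.39, adjusted p = 0.00328), with signal above background on 1 of 2 FLT3/ITD arrays. The neighbouring Aldh1a7 was lower in FLT3/ITD cells by at least 6.64-fold (adjusted p = 0.00161), with -7.33 and -6.29 against -2.34 and -2.24. In wild type FLT3 cells, Cxcl12-treated minus untreated, these 3 genes had differences of 0.20, -0.60 and -0.53, none past the test. Plekhh2 was at least 3.60-fold lower (adjusted p = 0.0061), Prune2 fell by 2.84 (SE 0.37, adjusted p = 0.00712) and D630033O11Rik was at least 2.89-fold lower (adjusted p = 0.0071). Of these 6 genes Dnah11 and Prune2 also passed with normexp background correction, where Aldh1a7 had -2.40 (adjusted p = 0.253), Aldh1a1 -2.11 (adjusted p = 0.1), Plekhh2 -1.99 and D630033O11Rik -2.01.

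For some gene lists most intervals bounded the difference between the 2 states, with a share that depended on the background correction. The share also depends on how wide the intervals are, and so on how bright the genes are. Of genes above background on all 4 arrays compared, 69.2% lay within 2-fold, against 63.2% of all genes tested. Whether the brightness of list members bears on their share was not tested. Of 24 measured genes of cholesterol synthesis and uptake 0 passed the test between the states, and 20 of 24 (83.3%, against 63.2% of all genes) had an interval within 2-fold, with a median difference of -0.007 (slide 1 -0.06, slide 2 -0.006). Both states stood above untreated wild type FLT3 cells, with list medians of 0.62 in FLT3/ITD and 0.64 in wild type FLT3 + Cxcl12 cells and 21 and 23 of 24 members positive. These 2 departures share the untreated arrays, and an error in those arrays would move both alike. With normexp background correction 2 of 24 members lay within 2-fold, against 18.1% of all genes, with a list median 0.29 above that of all genes, without the slide as a block 1 of 24, against 9.93%, and with an array left out 8 to 20 of 24, the fewest without the Cxcl12-treated array of slide 1.

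Idi1, isopentenyl diphosphate isomerase, had 5.01 and 3.87 in FLT3/ITD cells, 5.14 and 3.28 in wild type FLT3 + Cxcl12 cells and 4.23 and 2.54 in untreated wild type FLT3 cells, and the difference between the states was 0.23 (95% interval -0.27 to 0.73). For Nsdhl, a later enzyme of the pathway, the values were 1.99 and 1.41, 2.06 and 1.24, and 1.2 and 0.14 in the same order, with a difference of 0.05 (interval -0.51 to 0.61). Hmgcs1, which makes the HMG-CoA that HMG-CoA reductase uses, had 4.83 and 3.69 in FLT3/ITD cells, 4.5 and 3.46 in wild type FLT3 + Cxcl12 cells and 3.99 and 2.70 in untreated wild type FLT3 cells. In each of these genes both states lay above the untreated array of the same slide. Msmo1 (0.59), Insig1 (-0.67) and Acat2 (-0.51) were among the members whose interval reached beyond 2-fold.

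**Figure D4:**
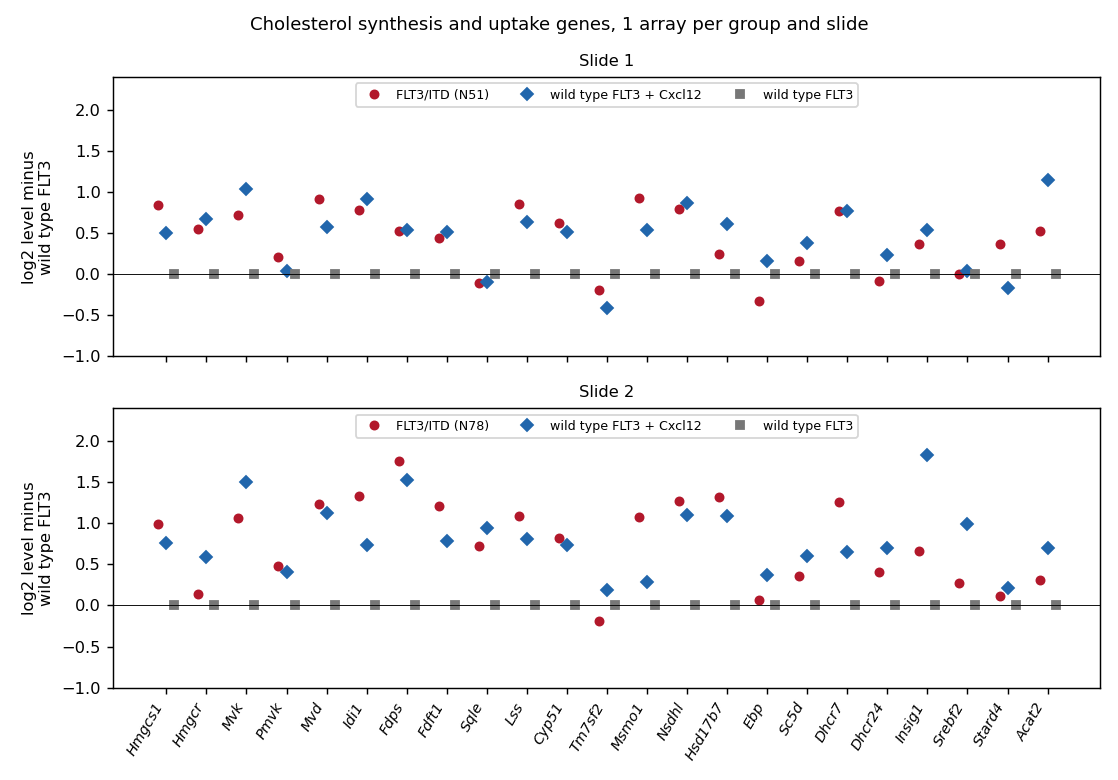
Levels of 23 of the 24 cholesterol synthesis and uptake genes minus the untreated wild type FLT3 array of the same slide (log2, y axis), in FLT3/ITD (red circles), wild type FLT3 + Cxcl12 (blue diamonds) and untreated wild type FLT3 cells (grey squares, 0 by construction), with N51 in the upper and N78 in the lower panel. Most red and blue points lie together above 0.

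A common shift away from untreated cells was tested as the mean of FLT3/ITD and wild type FLT3 + Cxcl12 minus untreated wild type FLT3. It passed for 3 genes (0.0252%), 1 higher (0.0084%), Mrvi1, and 2 lower (0.0168%), Aldh1a7 and Mcpt8, and each of these also differed between the states, so that 0 genes passed with both states alike within 2-fold. At an unadjusted p under 0.05 there were 1006 genes. Of these 407 had an interval of the difference between the states within 2-fold and also both departures from untreated cells of the same sign on both slides. No gene of the cholesterol list was among the 3.

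Genes of G2/M and mitosis were the list with the highest share within 2-fold, 26 of 28 (92.9%, against 63.2% of all genes), and 0 passed (median -0.05). With normexp background correction 2 of 28 lay within 2-fold (7.14%, against 18.1%), with a median 0.42 above that of all genes, without the slide as a block 5 of 28, and without the Cxcl12-treated array of slide 1, the lowest count with an array left out, 12 of 28. Mki67, the proliferation marker Ki-67, had 6.33 and 6.05 in FLT3/ITD cells, 6.50 and 6.09 in wild type FLT3 + Cxcl12 cells and 6.54 and 6.15 in untreated wild type FLT3 cells (difference -0.10, interval -0.47 to 0.27). Birc5, which encodes survivin, had 6.10 and 6.52 in FLT3/ITD cells, 6.69 and 6.32 in wild type FLT3 + Cxcl12 cells and 6.55 and 6.30 in untreated wild type FLT3 cells (difference -0.19, interval -0.68 to 0.30), negative on slide 1 and positive on slide 2. Of 30 genes of G1/S and DNA replication 24 lay within 2-fold and 0 passed (median -0.20; slide 1 -0.54, slide 2 0.14). With normexp background correction 2 of 30 lay within 2-fold (6.67%, against 18.1%), without the slide as a block 9 of 30, and 10 of 30 without the Cxcl12-treated array of slide 2 or 12 of 30 without the N78 array.

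Of 26 genes of Cxcr4 signalling and migration 21 (80.8%, against 63.2% of all genes) lay within 2-fold and 0 passed the test (median -0.18). With normexp background correction 2 of 26 lay within 2-fold (7.69%, against 18.1%) and the median was 0.51, and without the slide as a block 3 of 26 did (11.5%, against 9.93%). Cxcr4 itself (chromosome 1, 130485079 to 130485138, mm9) had 2.27 and 2.05 in FLT3/ITD cells, 3.15 and 2.31 in wild type FLT3 + Cxcl12 cells and 3.51 and 2.75 in untreated wild type FLT3 cells. Its difference was -0.57 (SE 0.40, adjusted p = 0.525; interval -1.46 to 0.32; 0.12 with normexp background correction), so that neither a likeness nor a difference was shown. Rgs2, a regulator of G protein signalling, had -0.82 (SE 0.20, adjusted p = 0.094), and the GTPase genes Rac1 (-0.09), Rac2 (-0.08) and Cdc42 (-0.18) lay within 2-fold by their intervals.

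MYC targets and ribosome biogenesis genes, which set the capacity for protein synthesis, leaned towards FLT3/ITD without a member past the test. Of 28 measured 0 passed, 26 differences were positive and 10 lay within 2-fold, with a median of 0.47 that was 0.07 on slide 1 and 0.87 on slide 2 (0.08 without the N78 array, 0.29 without the Cxcl12-treated array of slide 2 and 0.82 without the N51 array). Against untreated wild type FLT3 cells the list stood at 0.70 in FLT3/ITD and 0.17 in wild type FLT3 + Cxcl12 cells (medians). Srm, spermidine synthase, had 2.77 and 4.75 in FLT3/ITD cells against 2.03 and 2.91 in wild type FLT3 + Cxcl12 cells (difference 1.29, SE 0.39, adjusted p = 0.157), and Mybbp1a, a nucleolar protein, 2.31 and 3.81 against 1.48 and 1.93 (difference 1.36, SE 0.29, adjusted p = 0.059).

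**Figure D5:**
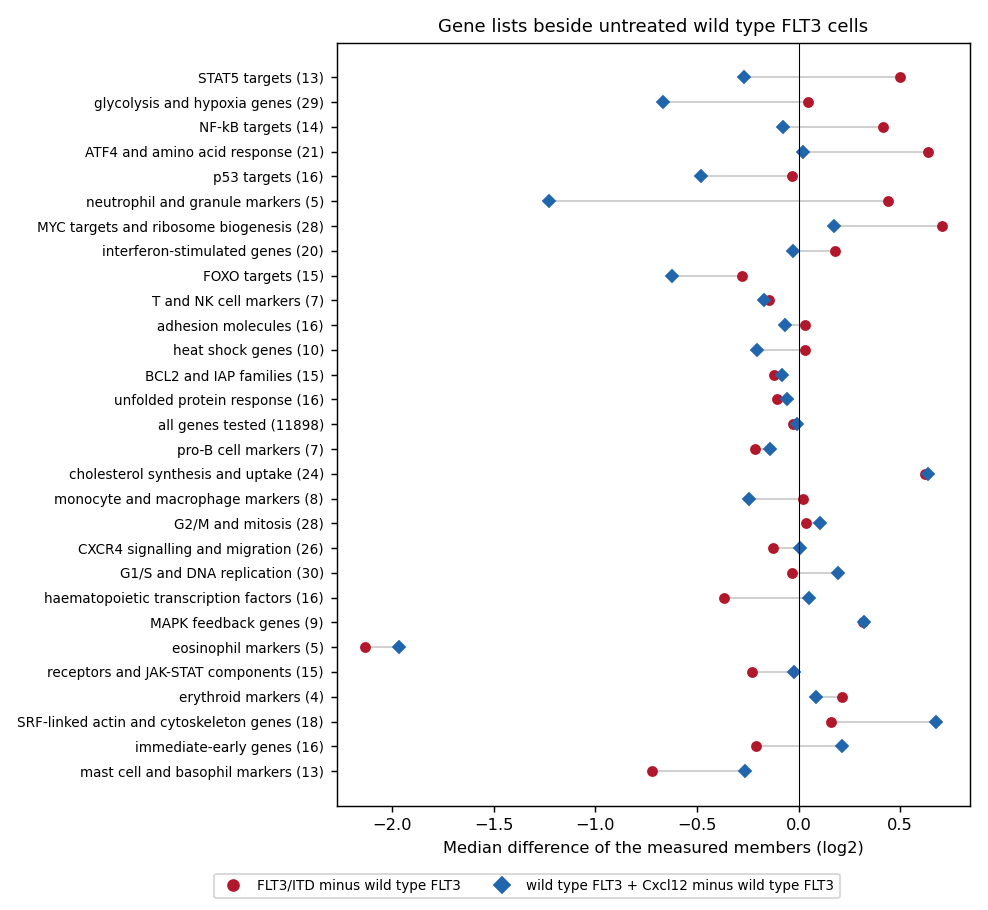
Median difference of each gene list from untreated wild type FLT3 cells (log2, x axis), in FLT3/ITD (red circles) and wild type FLT3 + Cxcl12 cells (blue diamonds), with the number of measured members in brackets and lists ordered by the median difference between the 2 states. Cholesterol genes have both marks together at 0.62 and 0.64, while for glycolysis and hypoxia genes the marks stand at 0.05 and -0.67.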

How the data were processed

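Agilent 4x44K mouse arrays with 1 dye (Cy3) measured the total RNA of 8 samples of Ba/F3 cells, 2 in each of 4 groups. The deposited processed intensity is, per the file headers, the background-subtracted output of Agilent Feature Extraction (9.5.1.1 on slide 1, 10.7.3.1 on slide 2) with no scaling between arrays. Foreground and local background intensities were used for the normexp alternative alone (offset 50). The authors' normalized tables hold deposited intensity values scaled so that each column has a median of 100 (slide 1) or 1 (slide 2). Between 99.66% and 99.88% of their values lay within 0.01 log2 of the matching array, and they served as an alternative.

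Here log2 of the processed intensity minus the array's 75th percentile (937.2 to 1109 on slide 1, 366.7 to 600.0 on slide 2) was used. Control spots were dropped, and outlier spots (93 to 203 an array) became missing values. A probe needed both arrays of some group well above background to be kept (21126 of 41174), and the brightest complete probe stood for its gene. Of the probes, 27198 were named by accession, 5590 by symbol, 721 by synonym and 749 by the file alone, and 6916 without a name were left out, as were 27 genes with no complete probe. Probe positions are those in the slide 2 files (mm9). The number of arrays limits the precision.

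All 8 arrays were fitted with limma 3.58.1 (R 4.3.3, data.table, version 1.17.8), with 4 group means, the slide as block and an intensity trend, with 3 degrees of freedom left. The headers' slide gives the pairing, and deviations from the group means correlated at 0.73 to 0.883 between arrays of a slide. The median 95% interval reached 0.569 to either side. The fit was tested on simulated data. A gene counted as within 2-fold where its 95% interval lay between -1 and 1, a count not adjusted over genes.

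Named genes were the 12 largest passing genes per direction, up to 4 passing members of each of 28 gene lists and a fixed set (Cxcr4, Pim1, Id1, Myc, Dusp2, Acta1, Actc1, Slc2a3, Ddit4, Mcpt8, Lyz2, Runx1, Birc5 and Cdkn1a, and Flt3, which was not measured), with further list members as examples. A few of these genes are not reported here, although they were kept in the counts and medians. Lists are described by counts and medians, without a test. The comparison, the genes and the lists were chosen with earlier results of these data known. Promoter sequences are RefSeq's (GRCm38.p6), matched by symbol. The alternatives tried were normexp, quantile normalization, the authors' tables, no or a stricter filter on dim probes, no slide block, only the 4 arrays compared, no trend, the mean of all probes, and leaving out each array.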

Additional observations from a re-analysis of the deposited data

Results flagged for a closer look

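Each of the following had opposite signs on slide 1 (N51) and slide 2 (N78), for FLT3/ITD minus wild type FLT3 + Cxcl12 with 1 array a side on each slide. The difference between the slides was not tested, and slide and ITD type cannot be told apart. Birc5 had -0.58 and 0.20. Among genes of the lists with over 2-fold differences in opposite directions, Prg2 had -3.22 and 2.77, Prg3 -3.40 and 3.05, Epx -2.21 and 4.34, Mpo -2.94 and 3.18, and Nkg7, of cytotoxic granules, -2.02 and 2.82. The granzyme gene Gzmb had 1.72 and -3.32, and the globin gene Hba-a1 1.18 and -2.37.

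Of the list medians, that of eosinophil markers was -3.02 and 2.77, of immediate-early genes 0.26 and -1.12, and of erythroid markers 0.31 and -1.01. The summed level of the eosinophil markers was 11.3 and 18.6 in FLT3/ITD cells, 75.8 and 3.82 in wild type FLT3 + Cxcl12 cells and 108 and 20.4 in untreated wild type FLT3 cells. Smaller opposite medians were those of G1/S and DNA replication (-0.54 and 0.14), monocyte and macrophage markers (0.30 and -0.40), pro-B cell markers (0.063 and -0.22), the unfolded protein response (-0.16 and 0.12), G2/M and mitosis (-0.11 and 0.13) and the BCL2 and IAP families (-0.006 and 0.12).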

How the results depend on the processing

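Of the genes past the test (166), 110 passed with normexp background correction (56 of them shared with the 166), 301 with the authors' tables (162 shared; 73.8% higher), 18 with no filter on dim probes, and 0 without the replicate block, that is, without the slide as a term (299 at an unadjusted p under 0.05). Leaving out each array in turn gave 28 to 263. The shared shift (3 genes) passed for 37 with normexp, 1 with quantile normalization, 32 with the authors' tables, 0 with no filter, 0 without the replicate block (107 at an unadjusted p under 0.05), 6 with no intensity trend and 0 with the mean of all probes, and for 1 to 10 with an array left out. Genes in the shared shift, within 2-fold and with both departures of the same sign on both slides numbered 0 as reported, 2 with normexp, 2 with the authors' tables and 4 with no trend. The count within 2-fold (7517) was 2155 with normexp and 1182 without the replicate block, and 3522 to 7951 with an array left out. Of the 51 named genes, 23 kept their direction and side of the threshold with normexp, 22 kept their direction but did not pass, and 6 turned. The causes were not tested.

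The median of all genes, 0.005, was 0.209 with normexp and 0.113 with the authors' tables. Over all alternatives the list medians ranged from 0.69 to 1.40 for glycolysis and hypoxia genes, 0.58 to 1.21 for STAT5 targets, 0.53 to 1.26 for the ATF4 response, -1.16 to -0.46 for mast cell and basophil markers, -0.08 to 0.50 for cholesterol genes and -0.54 to 0.19 for actin and cytoskeleton genes. With normexp the sign turned for Slc30a2 (-0.099), Ccl5 (-0.184), Lyz1 (-0.348), Cxcr4 (0.12), Myc (0.169) and Birc5 (0.59), the last also with an FLT3/ITD array left out (-0.565 to 0.179). With 2 arrays a group, 1 left out leaves a lone array that is assumed to vary like the other groups.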
